A study of Arabidopsis thaliana with 18 samples.

Results

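The genes described here are 10 Arabidopsis thaliana genes that act in mitosis and cytokinesis, chosen by name from the 32833 genes of the deposited expression table. They are the mitotic cyclins CYCB1;1 (AT4G37490), CYCB1;2 (AT5G06150), CYCB1;4 (AT2G26760), CYCB2;1 (AT2G17620) and CYCA1;1 (AT1G44110), the B-type cyclin-dependent kinases CDKB1;1 (AT3G54180), CDKB2;1 (AT1G76540) and CDKB2;2 (AT1G20930), the cytokinesis syntaxin KNOLLE (AT1G08560) and the Aurora kinase AUR1 (AT4G32830). All 10 were found in the table, and 9 passed the filter for testing, which asked for a value of 1 or more in at least 3 libraries. Values are TPM, a measure of transcript abundance scaled for transcript length and library size. CYCB2;1 did not pass and is described without a test.

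Poly(A)-selected RNA from leaves of 4-week-old plants was sequenced in 18 libraries, 3 in each of 6 groups: ein3eil1, phyA-211 and wild type (WT) plants after 6 h of submergence, and ein3eil1, phyA-211 and WT plants kept in air. All 18 sample titles also carry the word mock, and what it stands for is not stated. EIN3 and EIL1 are transcription factors of the ethylene pathway, and PHYA encodes phytochrome A, the photoreceptor of far-red light. The ein3 and eil1 alleles, the WT accession and whether replicates came from separate plants are not stated in the labels, so the p-values measure only the spread between these libraries, which may be technical. The title of the series sets the question as the part of PHYA in the escape from submergence, and the comparisons below ask how each line's mitotic genes differed between water and air.

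Mitotic cyclins bind cyclin-dependent kinases and switch them on at entry into mitosis. The B-type kinases are particular to plants and are made from late S phase to mitosis, KNOLLE drives membrane fusion at the cell plate that divides the daughter cells, and Aurora kinases act on the spindle and chromosomes. In a leaf these transcripts are known from dividing cells, which are found in young growing leaves and in the stomatal lineage and are few in mature blades. Transcription of many G2 and M phase genes in plants passes through a short element, the mitosis-specific activator (MSA) element, whose core AACGG is bound by MYB3R factors.

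That core was looked for, on both strands, in the 250 bases upstream of each gene's annotated start in RefSeq's TAIR10.1 assembly, a revision of the TAIR10 build that the submitters' processing notes name. AACGG or its reverse complement CCGTT stood in the windows of 7 of the 10 genes (70%), against 20.6% of 27443 protein-coding genes. At least 2 matches were in 4 of the 10 (40%), against 3.62% of the protein-coding genes, and at least 3 were in 3 of the 10 (30%), against 0.736%. The 4 windows below are shown because they span the range among the B-type cyclins, from 4 matches in CYCB1;2 and 3 in CYCB1;1 and CYCB2;1 to none in CYCB1;4. Each runs 5′ to 3′ on the gene's own strand and ends at the base before the annotated start, and capitals mark the core.
CYCB1;1 (chr4:17624309-17624558, minus strand): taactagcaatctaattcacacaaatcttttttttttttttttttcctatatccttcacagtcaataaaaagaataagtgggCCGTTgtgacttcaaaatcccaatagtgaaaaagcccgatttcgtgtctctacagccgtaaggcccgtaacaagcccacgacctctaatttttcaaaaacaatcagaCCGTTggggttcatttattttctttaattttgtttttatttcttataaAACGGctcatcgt
CYCB1;2 (chr5:1861704-1861953, minus strand): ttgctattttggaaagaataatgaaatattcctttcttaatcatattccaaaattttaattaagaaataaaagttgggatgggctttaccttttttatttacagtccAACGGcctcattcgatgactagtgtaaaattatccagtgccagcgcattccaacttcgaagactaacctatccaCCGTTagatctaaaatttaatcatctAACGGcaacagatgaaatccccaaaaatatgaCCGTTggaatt
CYCB2;1 (chr2:7663805-7664054, plus strand): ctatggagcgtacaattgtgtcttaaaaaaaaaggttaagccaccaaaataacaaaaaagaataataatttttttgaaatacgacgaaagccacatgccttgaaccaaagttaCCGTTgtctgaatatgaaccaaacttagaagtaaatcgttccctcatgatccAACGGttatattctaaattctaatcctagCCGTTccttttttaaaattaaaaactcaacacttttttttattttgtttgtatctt
CYCB1;4 (chr2:11400868-11401117, plus strand): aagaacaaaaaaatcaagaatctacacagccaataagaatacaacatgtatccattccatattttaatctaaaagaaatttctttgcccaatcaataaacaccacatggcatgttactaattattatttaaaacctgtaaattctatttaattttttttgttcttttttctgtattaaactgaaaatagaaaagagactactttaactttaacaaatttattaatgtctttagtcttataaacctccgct
CYCA1;1 held 2 matches, CDKB2;2, KNOLLE and AUR1 held 1 each, and CDKB1;1 and CDKB2;1, whose windows overlap a neighbouring gene, held none. The S-phase element of E2F factors, searched as TTTCCCGC or TTTGGCGC on both strands, was in none of the 10 windows and in 0.958% of those of all protein-coding genes. A match is a run of letters and no measurement of binding.

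The labels were checked first. PHYA was at 7.5 to 12.75 TPM in submerged phyA-211 and 22.04 to 23.81 TPM in submerged WT, and at 1.2 to 1.83 TPM in air phyA-211 and 10.83 to 13.22 TPM in air WT. EIL1 was at 6.9 to 17.03 TPM in the 6 ein3eil1 libraries and at 38.16 to 69.54 TPM in the 6 WT libraries, while EIN3 was at 26.94 to 49.37 TPM in ein3eil1 and 49.58 to 61.99 TPM in WT. ADH1, a gene of fermentation that plants switch on without oxygen, was at 411.56 TPM or more in each submerged library and at 22.93 TPM or less in each air library. Markers of green leaf tissue summed to 5985.8 TPM or more in every library. TPM keeps no read depth, so no counting error can be given for the low values below, and summed TPM per library was 996105 to 998620.

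Levels of the 10 genes were low. By mean TPM, KNOLLE and CDKB2;1 were the highest 2 in each group except submerged phyA-211, where CYCB1;1 was the highest, and CYCB2;1 was the lowest in each group. Air ein3eil1 had the highest group mean in 10 of 10 genes. Air phyA-211 came next in 8 of them, and the exceptions were CYCB1;1, with submerged phyA-211 next at 2.11 TPM, and CDKB2;2, with submerged ein3eil1 next at 2.25 TPM.

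**Figure D1:**
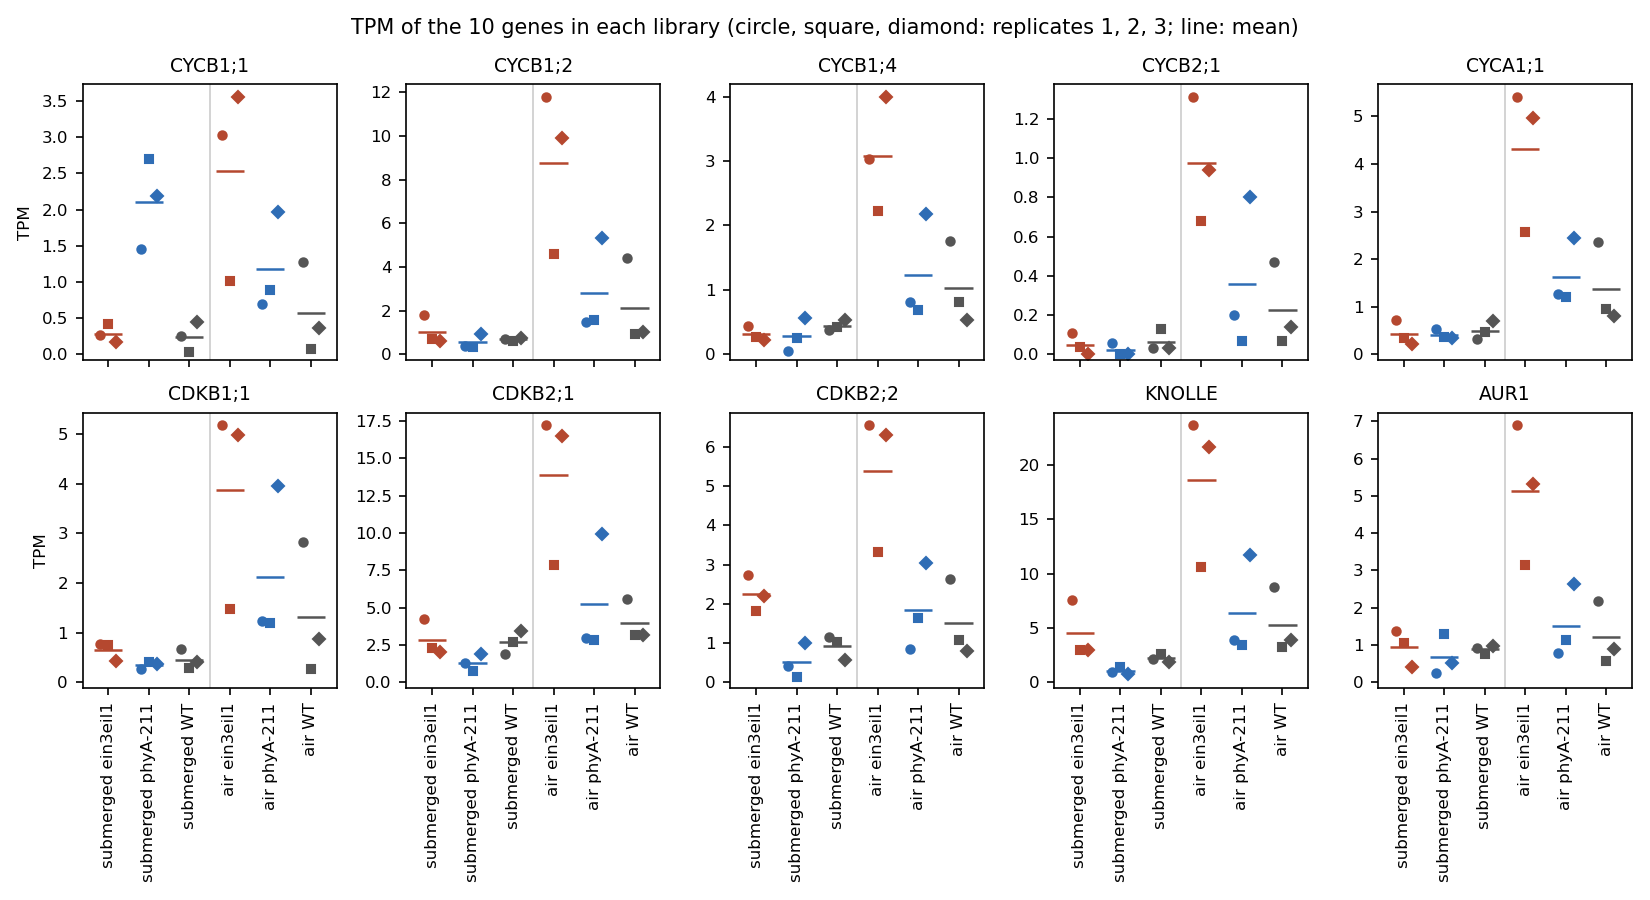
TPM of each of the 10 genes (vertical axis, linear, own scale per panel) in the 18 libraries, by group (horizontal axis), with replicates 1, 2 and 3 as circle, square and diamond and the group mean as a line. The air ein3eil1 libraries are the highest as a group in each panel, and CYCB1;1 is the panel in which submerged phyA-211, at 1.45 to 2.70 TPM, stands above the other submerged groups.

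Submergence in ein3eil1 lowered all 9 tested genes. The groups did not overlap for any of the 9, with each submerged library below each air library, where 52.9% of the 20302 tested genes were placed in that way. All 9 passed the limma test across all genes at a Benjamini-Hochberg adjusted p under 0.05, against a background of 47.3% of tested genes called lower. The median difference on the log2(TPM + 1) scale was -1.64 over the 9 genes and -0.48 over all tested genes. This scale understates the change of genes near 1 TPM, which most of these are. In leaf tissue, fewer dividing cells and less of the transcript per cell cannot be told apart.

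Among the cyclins, CYCB1;2, a B-type cyclin of mitotic entry, was at 1.78, 0.72 and 0.60 TPM in submerged ein3eil1 and at 11.78, 4.59 and 9.90 TPM in air ein3eil1. The highest submerged library lay below the lowest air library, and the difference of -2.22 ± 0.43 (log2, SE, n = 3 each) was the largest of the 9 in this line (limma adjusted p = 0.000315). CYCA1;1, an A-type cyclin of mitosis, was at 0.72, 0.34 and 0.22 TPM under water in ein3eil1 and at 5.41, 2.58 and 4.97 TPM in air ein3eil1. It had the smallest adjusted p of the 9 (difference -1.87 ± 0.27, limma adjusted p = 2.2e-05). CYCB1;4, another B-type cyclin, averaged 0.31 TPM in submerged ein3eil1 and 3.08 TPM in air ein3eil1, and CYCB1;1 averaged 0.287 TPM in submerged ein3eil1 and 2.53 TPM in air ein3eil1. Both fell, by 1.62 and 1.38 on the log2 scale (limma adjusted p = 6.86e-05 and 0.00165). CYCB2;1, not tested, was listed at 0.11, 0.04 and 0 TPM in submerged ein3eil1 and at 1.31, 0.68 and 0.94 TPM in air ein3eil1.

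Among the kinases, CDKB2;1 was at 4.26, 2.28 and 2.00 TPM in submerged ein3eil1 and at 17.23, 7.85 and 16.45 TPM in air ein3eil1. It fell by 1.92 on the log2 scale (SE 0.39, limma adjusted p = 0.000518), and CDKB1;1 fell by 1.45 (SE 0.40, limma adjusted p = 0.00535). CDKB2;2 was at 2.74, 1.81 and 2.19 TPM in submerged ein3eil1 and at 6.55, 3.32 and 6.29 TPM in air ein3eil1. Its difference of -0.94 ± 0.32 was the smallest of the 9 (limma adjusted p = 0.0183), and it kept its call in 9 of 15 alternative analyses. The call was lost after median centring (difference -0.41, limma adjusted p = 0.272) and quantile normalization, with a pseudocount of 0.1, and without air ein3eil1 replicate 1 or 3 or submerged ein3eil1 replicate 2. CDKB1;1 kept its call in 14 of 15, losing it after median centring (limma adjusted p = 0.0547), and the 7 others in 15 of 15.

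Of the genes of division itself, KNOLLE was at 7.58, 2.98 and 3.00 TPM in submerged ein3eil1 and at 23.70, 10.64 and 21.66 TPM in air ein3eil1. Replicate 1 under submergence and replicate 2 in air were nearest to each other, and the groups stayed apart (difference -1.86 ± 0.42, limma adjusted p = 0.00128). AUR1 was at 1.37, 1.05 and 0.41 TPM in submerged ein3eil1 and at 6.90, 3.14 and 5.32 TPM in air ein3eil1. It fell by 1.64 on the log2 scale (SE 0.33, limma adjusted p = 0.000523).

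Submergence in phyA-211 lowered 7 of the 9 genes, against a background of 23.9% of tested genes called lower, while CYCB1;1 went the other way without passing the test. The median difference was -0.87 over the 9 genes, where the median of all tested genes was 0.07. KNOLLE was at 0.97, 1.42 and 0.74 TPM in submerged phyA-211 and at 3.92, 3.47 and 11.74 TPM in air phyA-211. The groups did not overlap, and the third air library lay far above the other two (difference -1.69 ± 0.42, limma adjusted p = 0.00337). CDKB2;1 was at 1.30, 0.78 and 1.89 TPM in submerged phyA-211 and at 2.98, 2.85 and 9.95 TPM in air phyA-211, with no overlap (difference -1.28 ± 0.39, limma adjusted p = 0.0126). CYCB1;2 fell by 1.17, CDKB1;1 by 1.11, CDKB2;2 by 0.87, CYCA1;1 by 0.87 and CYCB1;4 by 0.75 on the log2 scale, with limma adjusted p between 0.0134 for CYCA1;1 and 0.0337 for CDKB2;2. AUR1 was at 0.25, 1.29 and 0.53 TPM in submerged phyA-211 and at 0.78, 1.14 and 2.64 TPM in air phyA-211. Its libraries overlapped between the conditions, since replicate 2 was the highest under water, and it did not pass (difference -0.55 ± 0.33, limma adjusted p = 0.18). No library overlapped between the conditions for 6 of the 9 genes, all 6 lower in water, where 23.5% of tested genes were placed in that way.

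Most of these phyA-211 calls depended on single libraries. KNOLLE kept its call in 14 of 15 alternative analyses and CYCA1;1 in 13 of 15, while the other called genes kept theirs in 8 to 11. No sign among the 9 turned in any alternative, and without air phyA-211 replicate 3 the median was -0.66. Without air phyA-211 replicate 3, which was the highest of its group for 10 of 10 genes, 1 of the 9 was called. Without submerged phyA-211 replicate 1 there were 3 calls, without replicate 2 of that group there were 2, and with a weight for each group's own spread (group-level weights) there were 0.

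CYCB1;1 stood apart from the other cyclins in phyA-211. It encodes a B-type cyclin that is known, besides its part in mitosis, to be induced by DNA damage in Arabidopsis. It was at 1.45, 2.70 and 2.18 TPM in submerged phyA-211 and at 0.69, 0.89 and 1.97 TPM in air phyA-211, so that the conditions overlapped (difference 0.53 ± 0.32, limma adjusted p = 0.183). In submerged WT it was at 0.25, 0.03 and 0.44 TPM, below each submerged phyA-211 library, a placement seen in 33.5% of tested genes. It was the 1 gene of the 9 called between these lines under water (difference 1.32 ± 0.32, limma adjusted p = 0.00784), where 32.7% of tested genes were called higher in phyA-211. The call was made in 14 of 15 alternative analyses and not with group-level weights (limma adjusted p = 0.0598). Its response to submergence differed between phyA-211 and ein3eil1 by 1.91 ± 0.46 (limma adjusted p = 0.00451), and this held in 21 of 21 alternatives. Against the WT response the difference was 0.82 ± 0.46 (limma adjusted p = 0.183). Between phyA-211 and WT under water the other 8 genes were negative without passing the test. The median of the 9 differences was -0.18, where that of all tested genes was 0.29.

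In submerged WT none of the 9 genes passed the test, where 38.0% of tested genes were called lower and 18.9% higher. CYCA1;1 was the 1 gene with an unadjusted p under 0.05 (limma adjusted p = 0.0627). The 9 differences were all negative, from -0.88 for KNOLLE to -0.17 for AUR1, with a median of -0.45 where the median of all tested genes was -0.32. With each library centred on its median gene, 5 of the 9 turned positive, AUR1, CDKB2;1, CDKB2;2, CYCB1;1 and CYCB1;4, so no direction is given for WT.

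KNOLLE was at 2.19, 2.64 and 1.88 TPM in submerged WT and at 8.75, 3.30 and 3.94 TPM in air WT. The groups did not overlap, and neither did those of CYCB1;2 and CYCA1;1, which makes 3 of 9 genes lower in each submerged library, where 49.5% of tested genes were. CYCA1;1 was at 0.32, 0.46 and 0.71 TPM in submerged WT and at 2.35, 0.95 and 0.81 TPM in air WT. CDKB2;1, at 1.89, 2.67 and 3.47 TPM in submerged WT and 5.59, 3.15 and 3.15 TPM in air WT, overlapped, as did AUR1 at 0.93, 0.75 and 0.97 TPM in submerged WT and 2.17, 0.57 and 0.89 TPM in air WT. In each of these genes replicate 1 was the highest air library.

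**Figure D2:**
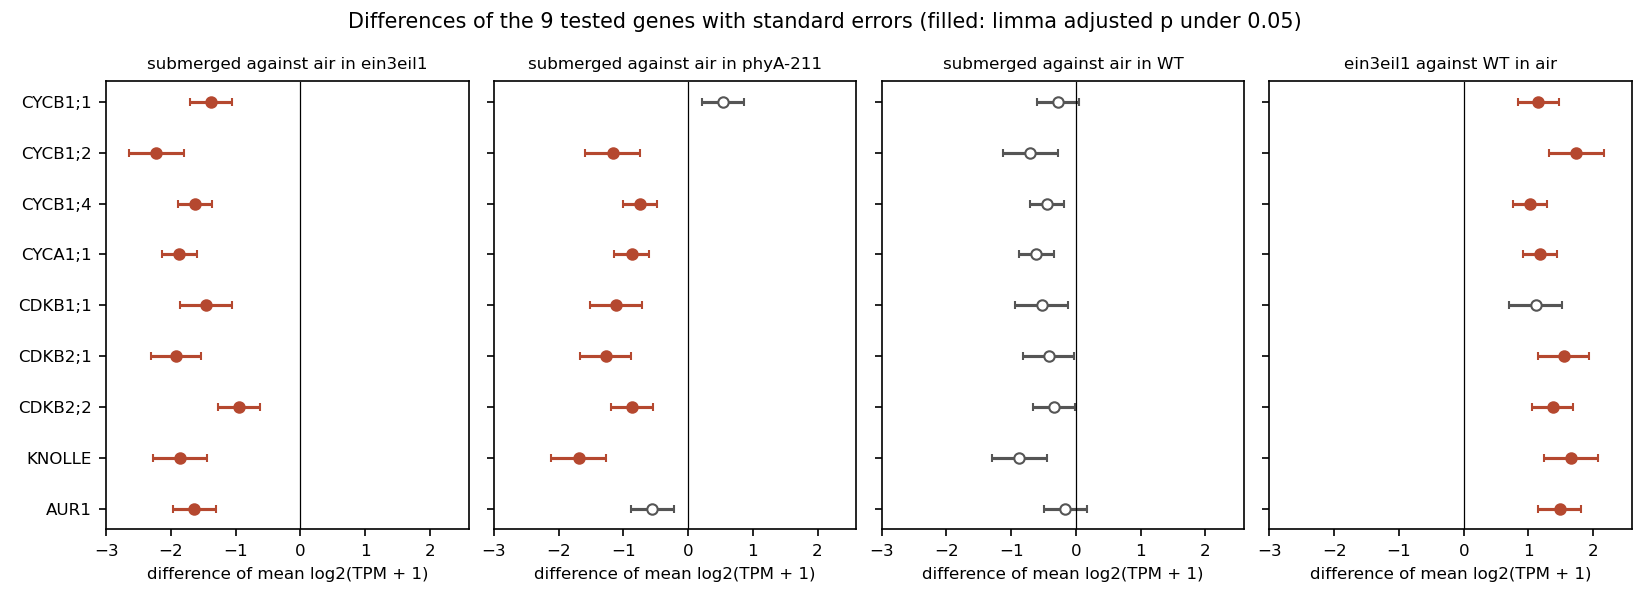
Differences of mean log2(TPM + 1) with standard errors (horizontal axis) for the 9 tested genes (vertical axis) in 4 comparisons, where filled red points passed limma at an adjusted p under 0.05. All 9 are filled and negative for submergence in ein3eil1, 7 in phyA-211 and 0 in WT, and 8 are filled and positive for ein3eil1 against WT in air.

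The lines also differed in air. In air ein3eil1, 8 of the 9 genes were higher than in air WT, against a background of 25.6% of tested genes called higher, and the median difference was 1.37 over the 9 genes and 0.37 over all tested genes. KNOLLE averaged 18.7 ± 7.02 TPM in air ein3eil1 and 5.33 ± 2.98 TPM in air WT (SD, n = 3 each), a log2 difference of 1.66 ± 0.42 (limma adjusted p = 0.0123). CYCB1;2 had the largest difference, 1.74 ± 0.43 (limma adjusted p = 0.0102), and AUR1 the smallest adjusted p (difference 1.49 ± 0.33, limma adjusted p = 0.00661). CDKB1;1, at 5.19, 1.47 and 4.98 TPM in air ein3eil1 and 2.83, 0.27 and 0.87 TPM in air WT, missed the threshold (difference 1.11 ± 0.40, limma adjusted p = 0.0509). The libraries did not overlap for 7 genes, all 7 higher in ein3eil1, where 52.1% of tested genes were. The other two overlapped.

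The 8 calls depended on scaling. With libraries centred on their median gene, and after quantile normalization, only AUR1 stayed called, while the 9 differences stayed positive with medians of 0.93 and 0.87. Of all tested genes, 5192 were called higher and 555 lower in air ein3eil1 as deposited, 823 and 1551 after centring. Without air WT replicate 2 there were 3 calls, and without air ein3eil1 replicate 1 there were 4.

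Under water none of the 9 genes passed the test between ein3eil1 and WT, where 44.5% of tested genes were called in either direction, and 1 gene had an unadjusted limma p under 0.05. That gene was CDKB2;2, at 2.74, 1.81 and 2.19 TPM in submerged ein3eil1 and 1.15, 1.03 and 0.57 TPM in submerged WT. It did not overlap (difference 0.76 ± 0.32, limma adjusted p = 0.0661), and nor did KNOLLE (difference 0.68 ± 0.42, limma adjusted p = 0.208). These were 2 of 9 genes with each submerged ein3eil1 library the higher, where 42.3% of tested genes were. The 9 differences had a median of 0.06, with 7 positive, and the median was -0.31 after median centring and -0.20 after quantile normalization, with 2 positive in each, so no direction is given.

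The change under water was larger in ein3eil1 than in WT for 3 of the 9 genes, against a background of 16.6% of tested genes called in that direction. For CYCA1;1 the response was lower by 1.25 ± 0.38 on the log2 scale than in WT (limma adjusted p = 0.023), for AUR1 by 1.47 ± 0.47 (limma adjusted p = 0.03) and for CYCB1;4 by 1.17 ± 0.37 (limma adjusted p = 0.0285). The other 6 were negative too, from -0.61 for CDKB2;2 to -1.52 for CYCB1;2, without passing. The ein3eil1 and WT responses share no libraries with each other. Each uses air libraries that also enter the difference in air above, so this result is not separate from that one. Leaving out 1 library moved this count between 0 and 6. It was 0 without air WT replicate 2 or 3, air ein3eil1 replicate 1 or 3, submerged WT replicate 3 or submerged ein3eil1 replicate 3, and 6 without air WT replicate 1 or air ein3eil1 replicate 2.

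Between the phyA-211 and ein3eil1 responses 2 of the 9 genes were called positive, CYCB1;1 and CYCA1;1 (difference 1.00 ± 0.38, limma adjusted p = 0.0425), against a background of 37.7% of tested genes. This count ran from 1 to 5 as single libraries were left out, with 5 without air phyA-211 replicate 3 and 4 without air ein3eil1 replicate 2, and CYCA1;1 was called in 6 of 21 alternatives.

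In air, none of the 9 genes passed the limma test between phyA-211 and WT, with 0 at an unadjusted p under 0.05 and 4.01% of tested genes called. The differences were between 0.11 and 0.50 with a median of 0.19, but without air phyA-211 replicate 3 the median was -0.11 and 7 of the 9 were negative. The libraries of each of the 9 overlapped, where 8.89% of tested genes were higher and 13.9% lower in each air phyA-211 library. For the phyA-211 response against that of WT, 0 of the 9 genes were called and 0 had an unadjusted limma p under 0.05, where 24.6% of tested genes were called. CDKB2;1 and KNOLLE had the lowest values there, -0.86 ± 0.55 and -0.82 ± 0.60.

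Within the air groups, 1 library stood at one end for all 10 genes. Air WT replicate 1 was the highest of its group for 10 of 10 genes, air phyA-211 replicate 3 for 10 of 10, and air ein3eil1 replicate 2 was the lowest for 10 of 10. Over all tested genes these shares were 47.8%, 32.8% and 36.4%. Under water, replicate 1 of ein3eil1 was the highest for 9 of 10, while no library was the highest for more than 4 of 10 in phyA-211 or 6 of 10 in WT. Over all tested genes the share was 25.1% for that ein3eil1 library. It was 19.3% and 53.5% for submerged phyA-211 replicates 2 and 3, each the highest for 4 of 10. For submerged WT replicate 3, the highest for 6 of 10, it was 33.6%. The summed TPM of the 10 genes was 84.13, 37.51 and 78.05 in air ein3eil1, 14.21, 14.74 and 44.03 in air phyA-211 and 32.21, 11.21 and 12.53 in air WT. The median SD of the 9 tested genes within the air groups was 0.53 to 0.58 on the log2 scale, while that of 4561 genes of like level was 0.21 to 0.28. Under water it was 0.26 in ein3eil1, 0.29 in phyA-211 and 0.19 in WT, near the 0.24, 0.35 and 0.16 of genes of like level.

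Markers of the shoot meristem and of young growing leaves moved with these air libraries. The 6 markers of the shoot meristem, STM, WUS, CLV3, KNAT1, CUC2 and CUC3, summed to 18.73, 0.53 and 29.09 TPM in air ein3eil1, to 0.16, 0.12 and 4.83 TPM in air phyA-211 and to 2.56, 0.04 and 0.16 TPM in air WT. They summed to 0.57 to 4.22 TPM in submerged ein3eil1, to 0 in each submerged phyA-211 library and to 0 to 0.14 TPM in submerged WT, where STM, a defining gene of the meristem, was listed at 0. The 6 markers of young growing leaves summed to 38.95, 16.61 and 41.32 TPM in air ein3eil1, to 12.59, 10.13 and 27.03 TPM in air phyA-211, to 25.61, 9.21 and 10.25 TPM in air WT and to 8.68 to 11.07 TPM under water.

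In air WT and air phyA-211 the highest library was the same for the mitotic genes and both lists, and in air ein3eil1 the lowest was. Replicate 3 of air ein3eil1 was the highest in both lists, while replicate 1 had the highest sum of the mitotic genes. The 3 floral organ genes AG, AP3 and PI summed to 0.99 to 44.45 TPM in air ein3eil1, 0.88 to 20.38 TPM in air phyA-211 and 1.3 to 3.72 TPM in air WT, with the lowest in ein3eil1 again replicate 2. Under water these 3 genes summed to 5.64 to 26.92 TPM in ein3eil1, 6.46 to 13.38 TPM in phyA-211 and 4.83 to 6 TPM in WT. By this sum each submerged WT library lay above each air WT library, where the mitotic genes summed lower in water. The 3 floral genes did not move as one. Their log2 differences in WT were 1.38 for PI, -0.03 for AP3 and -0.59 for AG, and none passed the limma test. The 9 markers of the stomatal lineage summed to 75.95, 75.05 and 53.38 TPM in air ein3eil1 and to 30.44 to 42.94 TPM in air WT, and 6 of 8 tested were called higher in air ein3eil1, where 25.6% of all tested genes were. Here replicate 2 of air ein3eil1 was not low. By replicate, the stomatal markers summed to 38.3, 34.05 and 51.64 TPM in air phyA-211 and to 42.94, 30.44 and 39.47 TPM in air WT. In these groups the highest library was the same as for the mitotic genes. Under water the stomatal markers summed to 21.71 to 26.79 TPM in ein3eil1, 20.5 to 26.68 TPM in phyA-211 and 34.58 to 36.5 TPM in WT. Of the 8 tested, submergence lowered 7 in ein3eil1, 1 in phyA-211 and 1 in WT, and raised 1 in WT. Of all tested genes 47.3%, 23.9% and 38.0% fell in these lines, and 18.9% rose in WT. The part of young tissue in the differences of the mitotic genes was not tested, and how leaves were chosen is not stated in the labels.

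**Figure D3:**
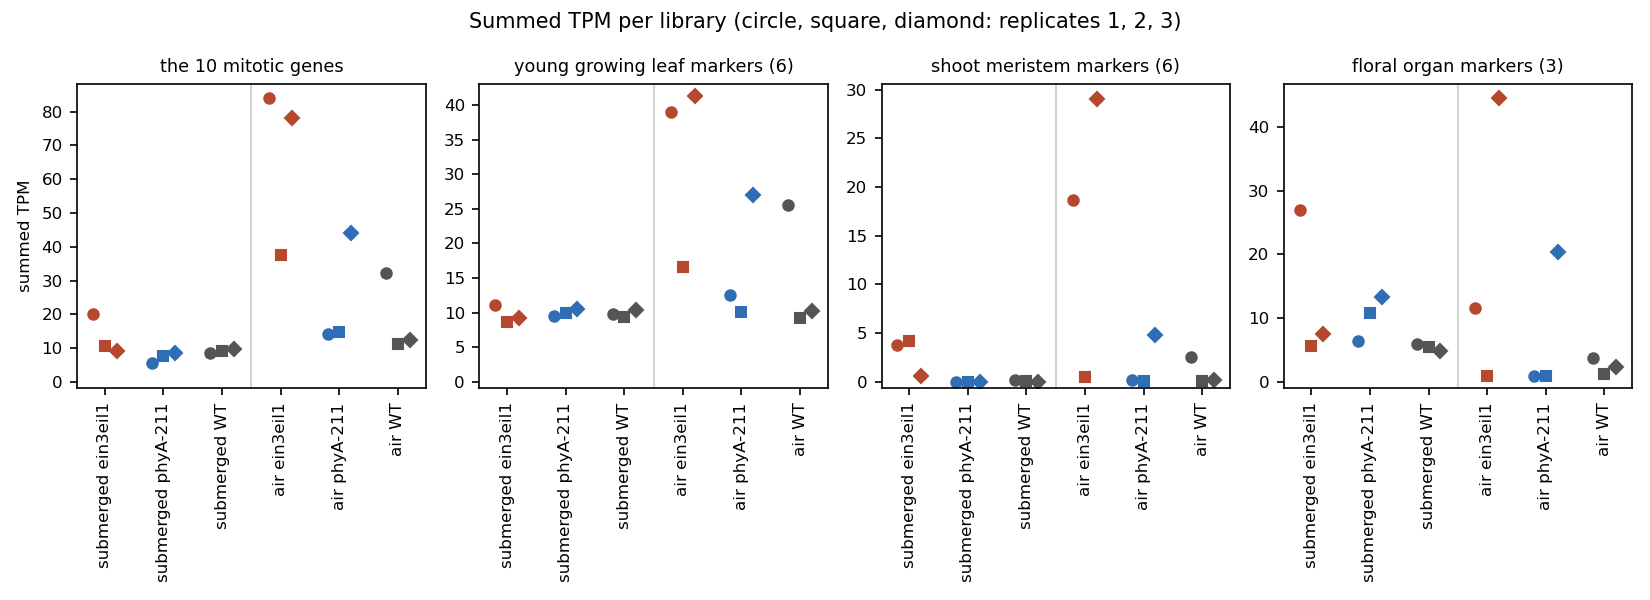
Summed TPM (vertical axis, linear) of the 10 mitotic genes and of 3 marker lists in the 18 libraries, by group (horizontal axis), with replicates 1, 2 and 3 as circle, square and diamond. Within their groups, air ein3eil1 replicate 2, air phyA-211 replicates 1 and 2 and air WT replicates 2 and 3 are low in the mitotic genes. They are at 37.51, 14.21, 14.74, 11.21 and 12.53 TPM. The same libraries are low within their groups in the young leaf and meristem panels too.

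By profile over the 18 libraries, the genes nearest to the mean of the 9 were AT4G29360, ANT, AT5G43020, IMK2, AT3G61610, HB25, AT5G44040 and AT1G21090, in that order. Their mean absolute difference from that mean profile, both centred and in log2(TPM + 1), was 0.15 to 0.20, where the median of 16570 protein-coding genes was 0.63. ANT, an AP2-type factor of organ growth, averaged 1.27, 0.62 and 1.15 TPM in submerged ein3eil1, phyA-211 and WT and 7.07, 3.40 and 2.53 TPM in air ein3eil1, phyA-211 and WT. ANT is one of the 6 young leaf markers above. IMK2, a receptor-like kinase, averaged 2.32, 1.40 and 1.16 TPM in submerged ein3eil1, phyA-211 and WT and 6.65, 3.18 and 2.36 TPM in air ein3eil1, phyA-211 and WT. HB25, a zinc finger homeodomain factor, averaged 3.72, 1.72 and 2.45 TPM in the submerged groups and 12.06, 6.43 and 4.84 TPM in the air groups, in the same order of lines.

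Other genes of the cell cycle were counted from 5 lists. TIO, a kinase of the phragmoplast, is not analysed here. Of all tested genes, 47.3% fell and 17.0% rose under water in ein3eil1, 23.9% fell and 27.3% rose in phyA-211, and 38.0% fell and 18.9% rose in WT. The counts below are read against these shares. Of the 16 tested other cyclins, kinases and mitotic exit genes, submergence lowered 11 and raised 1 in ein3eil1, lowered 7 and raised 1 in phyA-211 and lowered 2 in WT, a smaller share than the 38.0% of all tested genes. In ein3eil1 the B-type cyclin CYCB1;3 fell by 1.87, CYCA2;2 by 1.30 and CKS2, a small subunit that docks on the kinases, by 1.97 on the log2 scale. The exception in ein3eil1, named after its value was seen, was CYCA1;2, known for its part in meiosis, which rose by 0.57 (limma adjusted p = 0.0171), and in phyA-211 it was CDKA;1, the main cell cycle kinase, which rose by 0.65 (limma adjusted p = 0.0011).

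Of the 18 tested spindle, phragmoplast and cell plate genes, 15 fell and 1 rose in submerged ein3eil1, 7 fell and 1 rose in submerged phyA-211 and 6 fell in submerged WT, where 47.3%, 23.9% and 38.0% of all tested genes fell. The count in WT is near that background. NPSN11, a SNARE that pairs with KNOLLE at the cell plate, fell in all 3 lines, by 2.04 in ein3eil1, 1.75 in phyA-211 and 1.29 in WT. The one that rose was SNAP33, another SNARE partner of KNOLLE, which also acts at the plasma membrane in defence. SNAP33 was at 410.69, 382.55 and 315.19 TPM in submerged ein3eil1 and 125.17, 136.46 and 143.77 TPM in air ein3eil1 (difference 1.44 ± 0.18, limma adjusted p = 4.71e-06). In phyA-211 it was at 79.11, 127.34 and 145.23 TPM under water and 73.71, 65.64 and 71.35 TPM in air, and it rose there too (difference 0.69 ± 0.18, limma adjusted p = 0.00428). In WT it was at 107.91, 105.36 and 95.35 TPM under water and 99.05, 114.62 and 105.21 TPM in air, where the libraries overlapped and the test was not passed (limma adjusted p = 0.843). Its level was far above that of KNOLLE, and its direction under water was opposite to that of KNOLLE in ein3eil1 and phyA-211.

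Of the 10 regulators of mitotic transcription, 8 fell in submerged ein3eil1, 1 in phyA-211 and 5 in WT, where 47.3%, 23.9% and 38.0% of all tested genes fell. The phyA-211 count is below that background and the WT count near it. MYB3R4, an activator of genes with the MSA element, was at 0.18, 0.41 and 0.16 TPM in submerged ein3eil1 and 3.07, 1.42 and 2.20 TPM in air ein3eil1 (difference -1.34 ± 0.23, limma adjusted p = 0.000122). In air it was higher in ein3eil1 than in WT, where it was at 0.84, 0.43 and 0.34 TPM (difference 1.05 ± 0.23, limma adjusted p = 0.00597). Of the 21 tested G1 cyclins and replication genes, 19 fell in submerged ein3eil1, while 6 fell and 2 rose in each of phyA-211 and WT, which is near the 23.9% of all tested genes that fell in phyA-211 and below the 38.0% in WT. CYCD1;1 fell in each line, by 2.96 in ein3eil1, 2.81 in phyA-211 and 2.78 in WT.

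For ein3eil1 against WT in air, 11 of 16 other cyclins, kinases and exit genes, 12 of 18 spindle and cell plate genes, 6 of 10 regulators and 5 of 21 G1 and replication genes were called higher and 0 were called lower, where 25.6% of tested genes were higher and 2.73% lower. The count of G1 and replication genes is near that background. Of the 17 inhibitors and brakes of the cycle described below, 6 were called higher and 0 lower. CYCB1;3 was higher by 1.42, TOP2 by 1.55, TPX2 by 1.47 and CYCD3;1 by 1.43 on the log2 scale. After median centring the median of all tested genes in this comparison was -0.07, where it was 0.37 in the TPM as deposited.

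**Figure D4:**
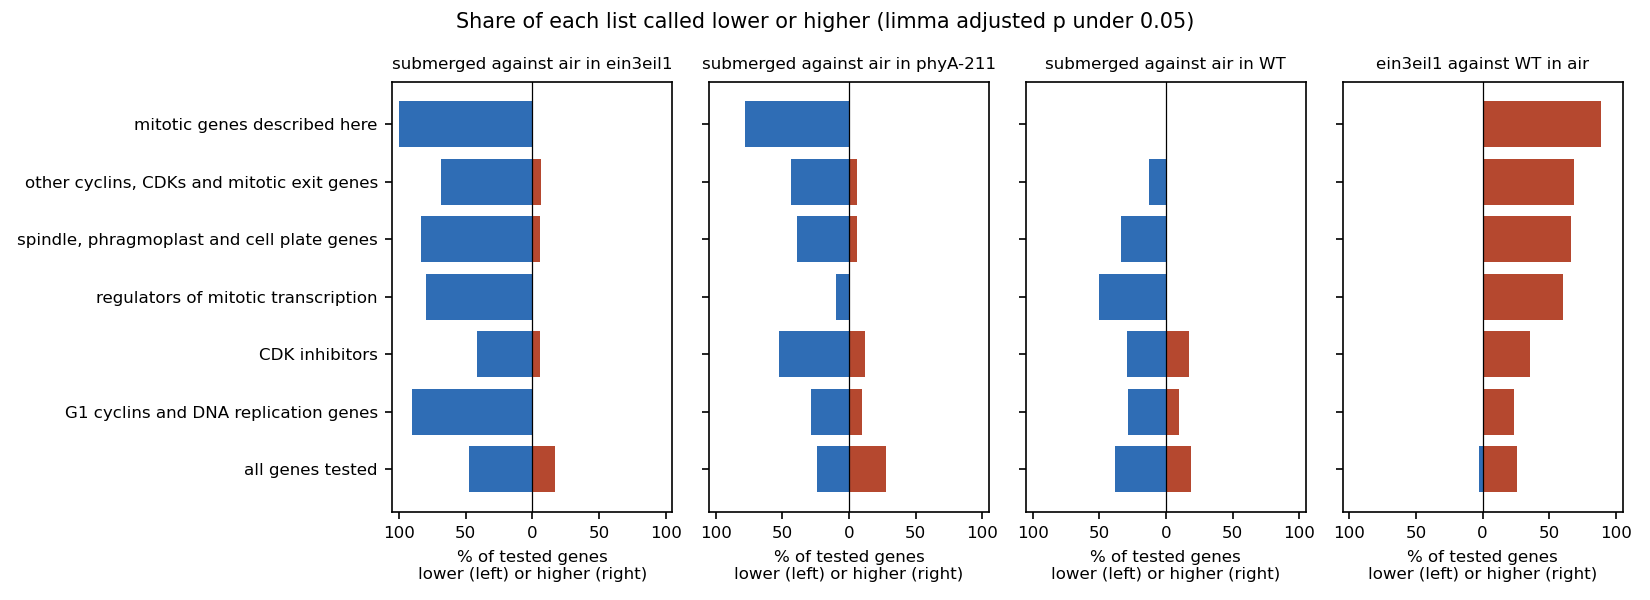
Share of each list's tested genes (horizontal axis, percent) called lower (blue, to the left) or higher (red, to the right) in 4 comparisons, with all tested genes as the bottom bar. In ein3eil1 under water 9 of 9 of the mitotic genes described here and 19 of 21 G1 and replication genes were lower, where 47.3% of all tested genes were.

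The 17 inhibitors and brakes of the cycle, which include the KRP and SIM-related inhibitors of cyclin-dependent kinases, WEE1 and the CCS52A activators of cyclin destruction, did not move as one. Submergence lowered 7 and raised 1 in ein3eil1, lowered 9 and raised 2 in phyA-211 and lowered 5 and raised 3 in WT. The 17 include SMR5, whose values are uncertain for the reason given below. The counts lowered in ein3eil1 and WT are no larger a share than the 47.3% and 38.0% of all tested genes that fell, and 23.9% fell in phyA-211. KRP4 was at 58.68, 50.28 and 47.73 TPM in submerged phyA-211 and 21.36, 15.81 and 17.83 TPM in air phyA-211, and at 54.26, 55.54 and 56.08 TPM in submerged WT and 11.43, 14.92 and 14.06 TPM in air WT. It rose in both (differences 1.47 ± 0.14 and 1.97 ± 0.14, limma adjusted p = 2.45e-07 and 1.28e-08). In ein3eil1 it was at 20.25, 16.36 and 19.38 TPM under water and 18.69, 17.73 and 18.13 TPM in air, and its response was lower than in WT by 1.94 ± 0.19 on the log2 scale (limma adjusted p = 4.16e-06). KRP4 was highest in submerged phyA-211 and submerged WT, while each mitotic gene had its highest group mean in air ein3eil1. CYCB1;1 was high in submerged phyA-211 too, at 1.45, 2.70 and 2.18 TPM, against 3.03, 1.01 and 3.55 TPM in air ein3eil1. In submerged ein3eil1, where the tested mitotic genes fell, KRP4 stayed near its level in air. A link between KRP4 and the mitotic genes was not tested.

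SMR7, a SIM-related inhibitor known to be induced by DNA damage, as CYCB1;1 is, was at 28.29, 16.57 and 19.45 TPM in submerged phyA-211 and 8.79, 5.56 and 3.87 TPM in air phyA-211. It was at 1.47, 1.19 and 0.11 TPM in submerged WT and 1.63, 0.60 and 0.45 TPM in air WT. It rose under water in phyA-211 (difference 1.69 ± 0.35, limma adjusted p = 0.000817) and was higher in phyA-211 than in WT under water (3.59 ± 0.35, limma adjusted p = 8.98e-06) and in air (1.89 ± 0.35, limma adjusted p = 0.00636). SMR7 and CYCB1;1 share their highest submerged group, submerged phyA-211, though CYCB1;1 was as high in air ein3eil1, where SMR7 was at 0.75, 1.40 and 1.11 TPM. In air, CYCB1;1 was not called between phyA-211 and WT (difference 0.50 ± 0.32, limma adjusted p = 0.521), while SMR7 was. A link between the 2 genes, or of either to DNA damage, was not tested. SMR5, of the same family, was listed at 0 in the WT and air ein3eil1 libraries and at 0 to 153.7 TPM within the other groups. It lies inside another annotated gene in the reference, so its values are uncertain.

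**Figure D5:**
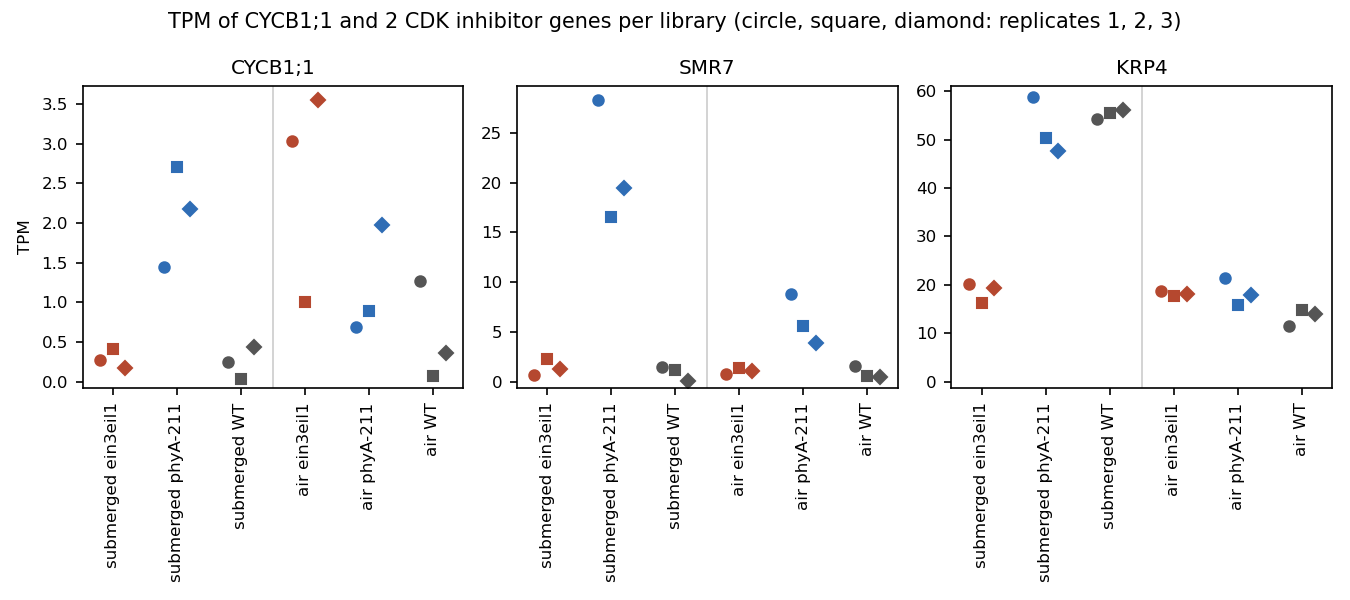
TPM (vertical axis, linear, own scale per panel) of CYCB1;1, SMR7 and KRP4 in the 18 libraries, by group (horizontal axis), with replicates 1, 2 and 3 as circle, square and diamond. SMR7 is high in submerged phyA-211, at 16.57 to 28.29 TPM, and KRP4 in submerged phyA-211 and submerged WT, while submerged ein3eil1 stays at 16.36 to 20.25 TPM for KRP4.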

How the data were processed

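The authors deposited 1 value per gene and library. Its unit, taken here as TPM, is named by no header or label. It was read from the deposited values, whose TPM sums per library are 996105 to 998620 and whose low values are higher in short genes. The submitters' processing notes name fastp, cutadapt, HISAT2, DESeq2 and TAIR10 without versions or roles. Whether strand was kept is not given in the sources used here, so reads of overlapping genes cannot be told apart.

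A pseudocount of 1 was added before taking log2. Genes reaching 1 TPM in 3 or more libraries (20302) entered 1 limma-trend fit (limma 3.58.1 in R 4.3.3, robust) of the 6 group means, with two-sided p-values adjusted by Benjamini and Hochberg over these genes. A count test had been planned first, and the TPM branch of the plan was taken. The 10 contrasts were water against air within a line, mutants against WT within a condition, and the differences between lines in their response. With 3 libraries a side, an exact test goes no lower than a p of 0.1. Alternatives were another pseudocount, other filters, median centring, quantile normalization, group-level weights, no robust moderation, only the libraries compared, a replicate block and leaving out each library. The fit was tested on simulated data.

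The 10 genes and the lists were chosen with earlier results of these data known. Named genes were the 10, at most 3 per other list and comparison by adjusted p, and the 8 genes of nearest profile with a mean of at least 2 TPM. Upstream windows were read from TAIR10.1 by locus name, and the deposited table holds no coordinates.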

Additional observations from a re-analysis of the deposited data

Results flagged for a closer look

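For 5 results the response to submergence differed between lines by limma's test of the difference itself. Between ein3eil1 and WT these were CYCB1;4 (-1.17 on the log2 scale, adjusted p = 0.0285), CYCA1;1 (-1.25, adjusted p = 0.023) and AUR1 (-1.47, adjusted p = 0.03), all with the larger fall under water in ein3eil1. They were called in 12, 15 and 13 of 21 alternative analyses. Of all tested genes, 16.6% were called in that direction. Between phyA-211 and ein3eil1 they were CYCB1;1 (1.91, adjusted p = 0.00451) and CYCA1;1 (1.00, adjusted p = 0.0425), called in 21 and 6 of 21 alternatives. Of all tested genes, 37.7% were called in that direction, a larger share than these 2 of 9. The meristem and young leaf markers differ between the same air libraries, and their part was not tested.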

How the results depend on the processing

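Counts of the 9 genes called are given here under each alternative that moved them by over 1.5 times. For submergence in WT, 0 as analysed, they were 1 with a pseudocount of 0.1, 3 with group-level weights, 1 with only the libraries compared, and 0 to 1 as single libraries were left out. For submergence in phyA-211, 7 as analysed, they were 0 with group-level weights, 3 with only the libraries compared and 1 to 7 without single libraries. For submergence in ein3eil1, 9 as analysed, they were 8 to 9 without single libraries. For phyA-211 against WT under water, 1 as analysed, they were 3 after median centring, 1 higher and 2 lower, and 0 with group-level weights. For ein3eil1 against WT in air, 8 as analysed, they were 1 after median centring and 1 after quantile normalization, and 3 to 9 without single libraries. For ein3eil1 against WT under water, 0 as analysed, they were 1 with group-level weights and 1 with only the libraries compared. For the response of ein3eil1 against WT, 3 as analysed, they were 1 with a pseudocount of 0.1, 5 with group-level weights and 0 to 6 without single libraries. For the response of phyA-211 against ein3eil1, 2 as analysed, they were 1 with a pseudocount of 0.1, no filter, median centring, quantile normalization, group-level weights or only the libraries compared, and 1 to 5 without single libraries. The cause was not tested.

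Signs of some of the 9 genes turned in 5 comparisons. For ein3eil1 against WT under water, up to 5 turned after scaling, 1 with a pseudocount of 0.1 and up to 3 without single libraries. For phyA-211 against WT, 7 turned in air without air phyA-211 replicate 3 and 2 without air WT replicate 2 or 3, and 1 under water without submerged WT replicate 1 or 3. For the response of phyA-211 against ein3eil1, up to 3 turned after scaling, 2 with a pseudocount of 0.1 and up to 2 without single libraries. For submergence in WT, 5 turned after median centring, in genes that were not called. After median centring AUR1 was at 0.30, CDKB2;1 at 0.044, CDKB2;2 at 0.13, CYCB1;1 at 0.18 and CYCB1;4 at 0.014. After quantile normalization AUR1 was at 0.17, CDKB2;1 at 0.075 and CDKB2;2 at 0.016. As single libraries were left out AUR1 ran from -0.38 to 0.13 and CYCB1;1 from -0.52 to 0.020, both positive without air WT replicate 1. Scaling moved the split of all called genes: for submergence in WT 3831 were higher and 7719 lower as analysed and 6539 and 4520 after centring, in ein3eil1 3444 and 9593 as analysed and 6186 and 5317 after centring, and for phyA-211 against WT under water 6639 and 1308 as analysed and 2365 and 4103 after centring.

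Deviations of same-numbered libraries from their group means had correlations of -0.375 to 0.438. Differently numbered libraries were not compared, so these values do not settle whether the numbers pair the samples. With a replicate block the counts were 0, 7 and 9 for submergence in WT, phyA-211 and ein3eil1, and 9 for ein3eil1 against WT in air, where CDKB1;1 was then called (limma adjusted p = 0.043).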
